A study of Homo sapiens with 24 samples.

Results

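The nuclear-encoded subunits of the mitochondrial respiratory chain were followed in K562 cells, a human erythroleukaemia line, after CRISPR interference at the gene of the erythroid transcription factor GATA1. They were chosen by symbol from the deposited count table: symbols that begin with NDUFA, NDUFB, NDUFC, NDUFS or NDUFV for complex I, SDHA to SDHD for complex II, UQCR for complex III, COX4 to COX8 for complex IV and ATP5 for complex V, with a mean of at least 5 CPM (counts scaled to a fixed library total) and without the NDUFAF assembly factors. The rule used no difference between groups. It gave 74 of 21925 entries, 35 in complex I, 4 in complex II, 9 in complex III, 11 in complex IV and 15 in complex V, and all 74 passed the filter on low counts. CYC1, the cytochrome c1 gene of complex III that the rule also names, and the chain's mitochondrially encoded genes were not analysed here. A further 6 entries matched by symbol and fell below the level, from ATP5S at 4.08 CPM and COX6B2 at 1.35 CPM to COX7A1 at 0.43, COX7B2 at 0.20, COX6A2 at 0.034 and COX8C at 0.033 CPM. The lowest entries inside it were NDUFA4L2 at 5.26 and UQCRBP1 at 12.3 CPM.

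Of the 74 entries, 64 encode subunits in the usual sense and 10 do not. NDUFV2-AS1 and NDUFB2-AS1 are antisense RNAs, UQCRBP1 and ATP5EP2 are pseudogenes, and UQCRHL is an intronless copy of UQCRH. NDUFC2-KCTD14 and ATP5J2-PTCD1 are read-through transcripts. ATP5SL is known as a complex I assembly protein, NDUFA4L2 is a paralog of NDUFA4, and COX7A2L is a paralog of COX7A2 that helps to join complexes III and IV into supercomplexes. These entries were kept, as the rule has them. Counts without them are given for the first comparison of each target with the controls, and the other counts of calls include them.

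All libraries came from K562 cells with a doxycycline-inducible, nuclease-dead Cas9 joined to the KRAB repressor domain, transduced with 1 single guide RNA (sgRNA) and given doxycycline for 24 hours, so the controls carried the repressor and the drug as well. GATA1TSS denotes 2 sgRNAs at the GATA1 transcription start site (6 libraries), eHDAC6 denotes 2 sgRNAs at a putative GATA1 enhancer (6 libraries), and NC denotes 4 non-targeting sgRNAs (12 libraries), with 3 biological replicates of each sgRNA. The RNA of 10000 lysed cells was read by strand-specific sequencing of polyadenylated RNA. Fewer cells of a type and less RNA per cell cannot be told apart in such bulk libraries.

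The respiratory chain passes electrons from NADH (complex I) and succinate (complex II) through complex III and cytochrome c to oxygen at complex IV, and the proton gradient so built drives ATP synthase (complex V). Apart from complex II, each complex joins subunits of the nuclear genome to a few of the mitochondrial genome, so the nuclear transcripts studied here make only part of the machine. In erythroid cells mitochondria also carry out steps of heme synthesis, and they are cleared late in maturation. The nuclear respiratory factors NRF1 and GABP, and YY1, are known to bind the promoters of many of these genes.

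The libraries held between 4290343 and 23205811 counts (median 13479250.5). The lowest was GATA1TSS-Guide2 replicate 2, and the next lowest had 7327820. GATA1 stood at 84.8 ± 37.1 CPM (SD, n = 6) with GATA1TSS, at 254 ± 8.72 CPM (n = 6) with eHDAC6 and at 363 ± 28.9 CPM (n = 12) with NC, below every control library in all 12 targeted libraries. The control libraries were not alike: on the first principal component of the controls, which held 26.5% of their variance, replicates 2 and 3 of NC-Guide3 and NC-Guide4 stood apart from the other 8. They are called the 4 and the 8 below, a split known from earlier results of these data. Comparisons with NC are given against all 12 control libraries and again against the 4.

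Over all 24 libraries the members' levels, as CPM per kb of exon, spanned a wide range within each complex. Complex IV had the highest median over its subunits, 444 CPM per kb of 10 subunits, against 192 for the 12 of complex V, 125 for the 7 of complex III, 110 for the 31 of complex I and 81.1 for the 4 of complex II. COX7C, a small accessory subunit of cytochrome c oxidase, had the highest level per length at 740 CPM per kb, closely followed by ATP5B, the catalytic beta subunit of ATP synthase, at 735 CPM per kb. UQCRH, the hinge protein of complex III, followed with 640 CPM per kb. Within complex I the subunits ran from 19.01 CPM per kb for NDUFA5 to 317 CPM per kb for NDUFA13, a 16.7-fold range, and within complex II the range was 3.22-fold. As a plain level, ATP5B was the highest with 1355 CPM. These lengths are the union of all deposited exons of a gene, so a gene with a long, little used exon reads low.

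**Figure D1:**
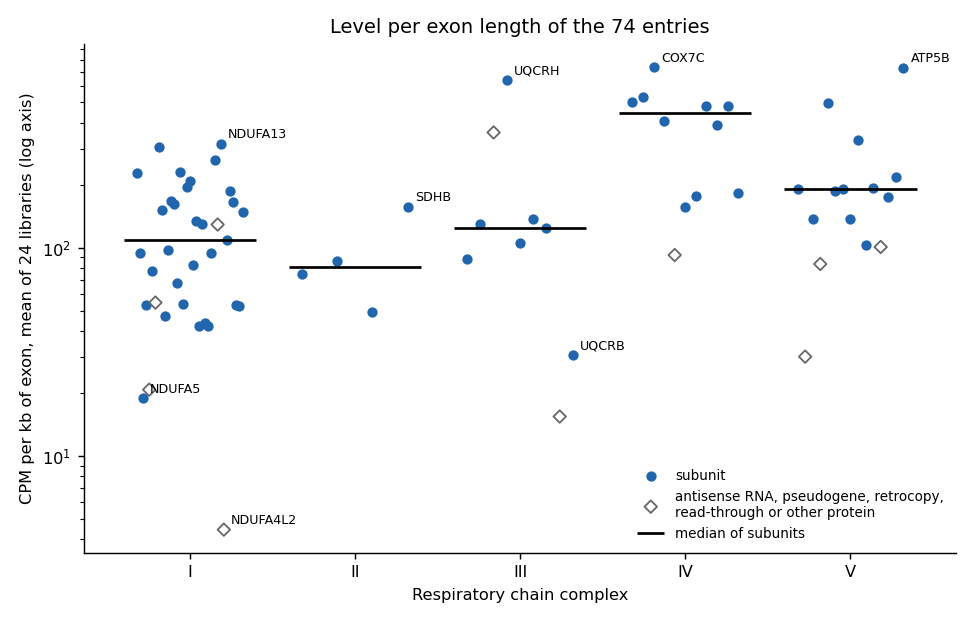
Level of each of the 74 entries in CPM per kb of exon (log axis, mean of 24 libraries), by complex. Filled circles are subunits, open diamonds the 10 entries of other kinds and lines the medians of the subunits, of which that of complex IV is the highest at 444 CPM per kb.

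Among the isoforms that replace one another between tissues, K562 cells had the common forms. COX6A1 averaged 223 CPM where COX6A2, the heart and muscle form, averaged 0.034 CPM. COX7A2 averaged 119 CPM against 0.43 CPM of COX7A1, another muscle form, and COX6B1 averaged 285 CPM against 1.35 CPM of COX6B2, known from testis. ATP5G1, ATP5G2 and ATP5G3 encode the same mature c subunit of the membrane ring from separate genes. Of these, ATP5G3 had the highest level at 481 CPM, followed by ATP5G2 at 425 CPM and ATP5G1 at 67.1 CPM. Per kb of exon the order was another, with ATP5G2 at 330, ATP5G3 at 138 and ATP5G1 at 104 CPM per kb.

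Most members varied little across the 24 libraries. Their coefficient of variation had a median of 9.62%, against 13.1% over all 9976 tested entries at the same minimum level. It was lowest for COX5A at 6.01%, a matrix-side subunit of complex IV. By far the largest values were those of NDUFA4L2 at 65.4% and the pseudogene UQCRBP1 at 38.2%, followed by COX7B at 23.3%, COX7A2L at 21.6% and ATP5I at 21.1%. Within an sgRNA the members' median coefficient ran from 3.81% (NC-Guide1) to 11.03% (GATA1TSS-Guide2). That of all entries at the level was 6.72% and 9.98% in these sgRNAs. Beyond the minimum, the members and all entries were not matched in level.

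With GATA1TSS, 21 of the 74 members were lower than in NC and 1 was higher. The share lower was 28.4%, where 13.7% of all 13147 entries tested were called lower, and the share higher was 1.35%, where 13.5% of all entries were (quasi-likelihood test of edgeR, p under 0.05 after Benjamini-Hochberg adjustment over all entries). The members' median log2 fold change was -0.10, against -0.00 over all entries, and 62 of 74 were negative. With eHDAC6, 14 members were lower (18.9%, against 15.3% of all entries) and 2 were higher (2.7%, against 15.8%), with a median of -0.06 against -0.01 over all entries. Without the 10 entries of other kinds, 17 of 64 were lower and 1 higher with GATA1TSS, and 11 lower and 1 higher with eHDAC6. The shifts were small: all members but NDUFA4L2 had a log2 fold change between -0.56 and 0.25 with either element. Scaling by total counts in place of TMM gave 13 lower and 3 higher with GATA1TSS, and 14 lower and 4 higher with eHDAC6, and without GATA1TSS-Guide1 replicate 1 the GATA1TSS calls numbered 10 in all. With the 3 replicates of each sgRNA summed to 1 value, which leaves the sgRNA as the unit, 2 members were called with GATA1TSS and 0 with eHDAC6. The shares of all entries called in these alternative runs are not given here.

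The lower members were also counted by complex. With GATA1TSS 5 of 11 members of complex IV, 7 of 15 of complex V, 3 of 9 of complex III, 6 of 35 of complex I and 0 of 4 of complex II were lower. With eHDAC6 the numbers were 5 of 11, 3 of 15, 2 of 9, 4 of 35 and 0 of 4. Of all entries, 13.7% were lower with GATA1TSS and 15.3% with eHDAC6. With only 4 members, a count of 0 in complex II cannot be told from these shares. The counts include entries that are not subunits in the usual sense. These are COX7A2L, UQCRHL and NDUFA4L2 with both elements, and ATP5EP2 of complex V with GATA1TSS. Median log2 fold changes with GATA1TSS were -0.13 in complex IV, -0.13 in complex V, -0.11 in complex III, -0.09 in complex I and 0.03 in complex II. Against the 4 control libraries the medians with GATA1TSS were -0.10 in complex IV, -0.06 in complex V, -0.11 in complex III, -0.08 in complex I and -0.08 in complex II, so complex II did not keep its sign, and 4 of its 4 members were negative. The difference between complexes was not tested. The 14 members lower with eHDAC6 were all among the 21 lower with GATA1TSS, but both comparisons use the same control libraries.

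**Figure D2:**
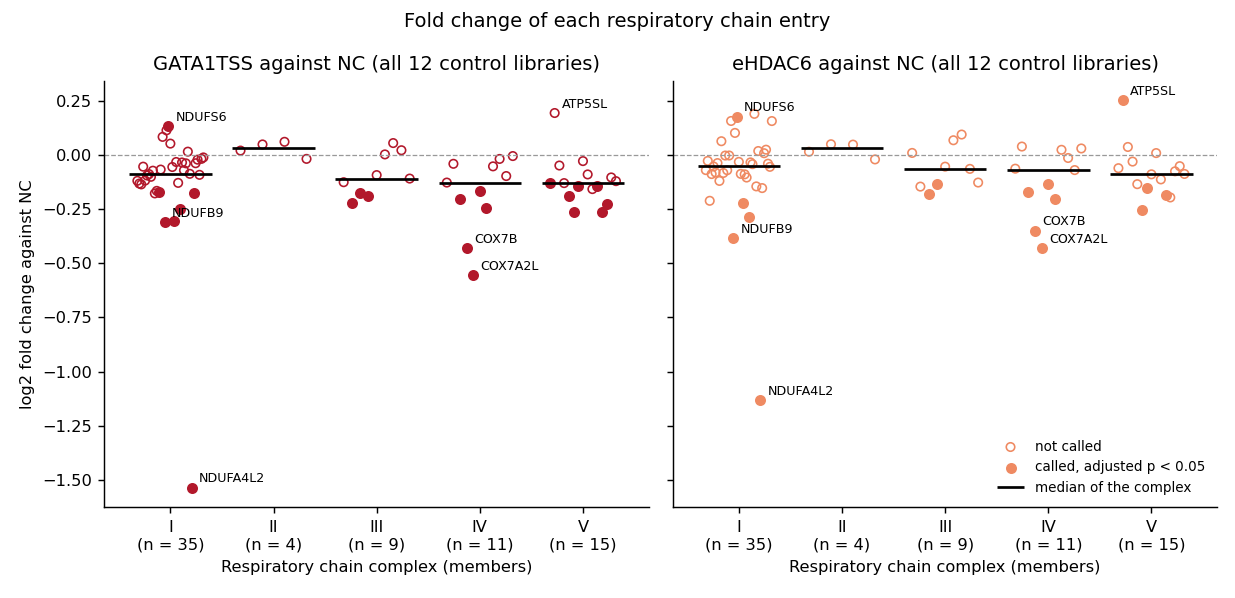
Log2 fold change of each member against all 12 NC libraries with GATA1TSS (left) and eHDAC6 (right), by complex. Filled points were called at an adjusted p under 0.05 and lines are medians: most points lie just below 0, complex II lies at 0.03, and COX7A2L, COX7B and NDUFA4L2 lie lowest in their complexes with GATA1TSS.

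The clearest member was grouped with complex IV by its symbol, though it is not a subunit in the usual sense. COX7A2L, on the minus strand of chromosome 2 at chr2:42577645-42588356 of hg19 with 3 exons, stood at 92.5, 85.8 and 88.5 CPM in the 3 libraries of GATA1TSS-Guide1 and at 79.1, 68.9 and 74.5 CPM in those of GATA1TSS-Guide2. With eHDAC6-Guide1 it stood at 88.2, 87.1 and 88.7 CPM, and with eHDAC6-Guide2 at 94.3, 101 and 74.2 CPM. The 4 NC sgRNAs gave 147, 137 and 133 CPM (NC-Guide1), 126, 127 and 135 (NC-Guide2), 125, 105 and 108 (NC-Guide3) and 108, 98.7 and 99.1 CPM (NC-Guide4). All 6 GATA1TSS libraries lay below all 12 control libraries, as did 5 of the 6 eHDAC6 libraries. Its log2 fold change was -0.56 with GATA1TSS (SE 0.06, edgeR adjusted p = 9.73e-08) and -0.43 with eHDAC6 (SE 0.06, edgeR adjusted p = 7.95e-06).

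COX7A2L was the only member that lay outside all 12 control libraries with GATA1TSS (1 of 74 below, where 0.996% of all entries were, and 0 above, where 0.791% were). With eHDAC6 no member did (0.753% of all entries lay below and 0.905% above). It was also the only member called lower with GATA1TSS both against all 12 and against the 4 control libraries, with a log2 fold change of -0.33 against the 4 (SE 0.07, edgeR adjusted p = 0.00239). Against the 4 with eHDAC6 its log2 fold change was -0.21 (SE 0.07, edgeR adjusted p = 0.133). It remained called in the comparison of GATA1TSS with NC under every alternative run, with a log2 fold change between -0.68 and -0.31. Taken alone against the 4, GATA1TSS-Guide1 had 0 of 74 members called, so COX7A2L was not called there.

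The small subunits of complex IV had smaller changes. COX7B, on the plus strand of chromosome X at chrX:77154961-77160881 and 28510 kb from the GATA1 start, had a lowest, median and highest value of 142, 157 and 165 CPM with GATA1TSS, 148, 159 and 197 CPM with eHDAC6 and 156, 214 and 287 CPM with NC. Its log2 fold change was -0.43 with GATA1TSS (SE 0.07, edgeR adjusted p = 8.05e-05) and -0.35 with eHDAC6 (SE 0.07, edgeR adjusted p = 0.00089). The controls themselves were spread widely: COX7B averaged 164 ± 9.11 CPM (SD, n = 4) in the 4, a level within the range of both targeted groups. Against the 4 its log2 fold change was -0.08 with GATA1TSS and 0.00 with eHDAC6, neither of them called. COX6C, COX7C and COX7A2, further nuclear subunits around the catalytic core, had log2 fold changes of -0.25, -0.20 and -0.17 with GATA1TSS and -0.20, -0.17 and -0.13 with eHDAC6, all 6 called against all 12. COX4I1, the largest nuclear subunit, and COX6A1 were not called with either element.

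In complex I the lower members were NDUFA4, NDUFA4L2, NDUFB6 and NDUFB9 with both elements, and NDUFA7 and NDUFAB1 with GATA1TSS. The share of lower members in complex I was near that of all entries with either element. NDUFA4, a subunit first assigned to complex I and later placed in complex IV, ran over 206, 252 and 271 CPM (lowest, median, highest) with GATA1TSS, 240, 251 and 294 CPM with eHDAC6 and 260, 296 and 364 CPM with NC. The ranges overlap: 6 of the 12 NC libraries lay within the eHDAC6 range and 2 within the GATA1TSS range. Its log2 fold change was -0.30 with GATA1TSS (SE 0.06, edgeR adjusted p = 0.000433) and -0.22 with eHDAC6 (SE 0.06, edgeR adjusted p = 0.00701). NDUFB9, an accessory subunit of the membrane arm, fell by 0.31 with GATA1TSS (edgeR adjusted p = 0.00202) and by 0.38 with eHDAC6 (edgeR adjusted p = 0.00033) on the log2 scale, and averaged 150 ± 12.2 CPM with GATA1TSS, 142 ± 14.4 CPM with eHDAC6 (SD, n = 6 each) and 186 ± 27.6 CPM with NC (n = 12).

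NDUFA4L2, a paralog of NDUFA4 that is known to be induced by hypoxia, had the largest change and the lowest level of all members. It stood at 1.37, 2.27 and 3.64 CPM (lowest, median, highest) with GATA1TSS, at 2.12, 3.35 and 4.17 CPM with eHDAC6 and at 1.501, 7.55 and 13.2 CPM with NC. Its log2 fold change was -1.54 with GATA1TSS (SE 0.25, edgeR adjusted p = 4.7e-05) and -1.13 with eHDAC6 (SE 0.25, edgeR adjusted p = 0.00123). Against the 4 controls, which averaged 3.96 ± 1.74 CPM (SD, n = 4), the values were -0.59 and -0.19 and neither was called. Exons of NDUFA4L2 overlap SHMT2 on the opposite strand, and whether strand was used in counting is not given in the sources used here.

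NDUFS6, an accessory subunit of the matrix arm, was the only member called higher with GATA1TSS, by 0.13 on the log2 scale (SE 0.05, edgeR adjusted p = 0.0492), and it was higher by 0.18 with eHDAC6 (SE 0.05, edgeR adjusted p = 0.00935). It averaged 111 ± 11.4 CPM with GATA1TSS, 114 ± 8.4 CPM with eHDAC6 (SD, n = 6 each) and 101 ± 10.8 CPM with NC (n = 12), but 114 ± 3 CPM in the 4 control libraries. NDUFS7, an iron-sulfur subunit of the electron path, was not called against all 12 with either element.

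**Figure D3:**
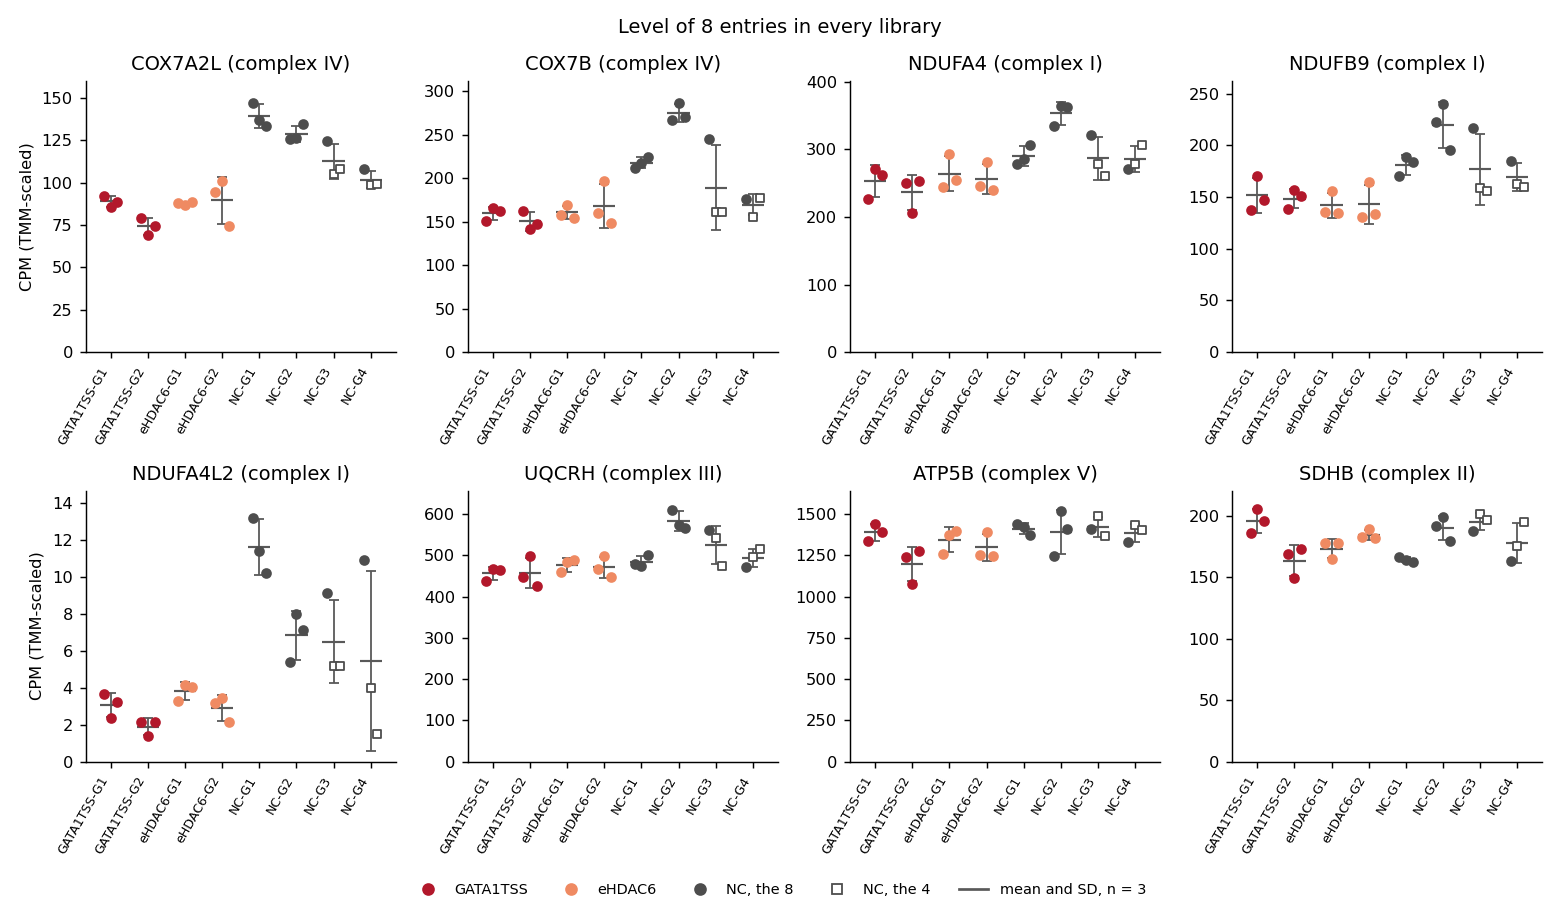
Level in CPM of 8 members in each of the 24 libraries by sgRNA, with the mean and SD of 3 replicates; open squares are the 4 control libraries. COX7A2L lies lower in all 6 GATA1TSS libraries than in any control, the 4 controls lie near the targeted libraries for COX7B and NDUFA4L2, and SDHB shows no such step.

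In complex III the called members were UQCRH and UQCRHL with both elements and UQCRQ, a small subunit near the ubiquinone sites, with GATA1TSS. UQCRH stood at 426, 456 and 498 CPM (lowest, median, highest) with GATA1TSS, at 448, 475 and 498 CPM with eHDAC6 and at 471, 507 and 610 CPM with NC. The log2 fold changes were -0.19 (SE 0.05, edgeR adjusted p = 0.00309) and -0.13 (SE 0.05, edgeR adjusted p = 0.0287). UQCRHL, its near-identical copy, had log2 fold changes of -0.17 and -0.18, and reads of the pair may have been split in counting, so the values of both are uncertain. UQCRC2, a core subunit, had log2 fold changes of 0.00 and 0.07 and was not called.

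Complex V, the ATP synthase, had 7 lower members with GATA1TSS: ATP5A1, ATP5D, ATP5EP2, ATP5F1, ATP5H, ATP5I and ATP5J2. Of these ATP5F1, ATP5H and ATP5I were also lower with eHDAC6. ATP5I, the e subunit of the membrane part, had 57.3, 60.4 and 70.3 CPM (lowest, median, highest) with GATA1TSS, 56.1, 62.2 and 67.6 CPM with eHDAC6 and 59.8, 69.9 and 127 CPM with NC. The highest of these control values, 127 CPM, was that of NC-Guide2 replicate 1, and the next was 83.8 CPM. ATP5I fell by 0.26 with GATA1TSS (edgeR adjusted p = 0.00748) and by 0.25 with eHDAC6 (edgeR adjusted p = 0.00986) on the log2 scale, and against the 4 it had values of -0.05 and -0.04, neither called. ATP5D, the delta subunit of the rotor stalk, had a log2 fold change of -0.22 with GATA1TSS (edgeR adjusted p = 0.0225) and -0.08 with eHDAC6 (edgeR adjusted p = 0.452). ATP5B was not called, with log2 fold changes of -0.12 (edgeR adjusted p = 0.0616) and -0.09 (edgeR adjusted p = 0.167). ATP5G1, ATP5G2 and ATP5G3 were not called either, with values between -0.16 and 0.01. ATP5SL was higher with eHDAC6 by 0.25 (SE 0.07, edgeR adjusted p = 0.0115), averaging 60.3 ± 2.66 CPM with eHDAC6 (SD, n = 6) and 50.9 ± 8.28 CPM with NC (n = 12), but 59.9 ± 6.76 CPM in the 4 (n = 4).

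Complex II, which also serves the citric acid cycle, had no called member against all 12 control libraries. SDHA, the flavoprotein, averaged 212 ± 14.9 CPM with GATA1TSS, 211 ± 6.7 CPM with eHDAC6 (SD, n = 6 each) and 209 ± 18.7 CPM with NC (n = 12). SDHB, the iron-sulfur subunit, averaged 180 ± 20.3, 179 ± 8.28 and 182 ± 15.1 CPM in the same order of groups. The membrane anchors SDHC and SDHD had log2 fold changes of 0.06 and 0.05 with GATA1TSS and 0.05 and 0.05 with eHDAC6. At an unadjusted p under 0.05 the count over complex II was 0 with either element as well. The controls differed here too: SDHA averaged 230 ± 7.52 CPM in the 4 (SD, n = 4), and SDHD was called higher against the 8 by 0.16 with GATA1TSS (edgeR adjusted p = 0.039) and by 0.16 with eHDAC6 (edgeR adjusted p = 0.0349), with log2 fold changes of -0.06 and -0.06 against the 4.

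Against the 4 control libraries most of these calls were lost. With GATA1TSS 2 members were lower, COX7A2L and NDUFS7 (2.7% of 74, where 5.39% of all 13126 entries tested were lower), and 0 were higher (where 4.84% were). With eHDAC6 0 members were lower or higher (0.587% and 0.899% of all entries), with 5 at an unadjusted p under 0.05 (edgeR). The medians changed less than the calls: they were -0.09 with GATA1TSS and -0.05 with eHDAC6, against -0.10 and -0.06 with all 12, and 66 and 61 of 74 values were negative. Against the 8, which share no library with the 4, 17 members were lower and 4 higher with GATA1TSS (14.2% and 18.9% of all 13730 entries), and 12 were lower and 9 higher with eHDAC6 (15.8% and 21.3%). In that fit 4 control sgRNAs remain, with a single library each for NC-Guide3 and NC-Guide4.

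NDUFS7 stood apart in that it was called against the 4 and not against all 12. It had 132, 206 and 223 CPM (lowest, median, highest) with GATA1TSS, 213, 229 and 252 CPM with eHDAC6, and 126, 201 and 256 CPM with all 12 NC libraries. The 4 had 237, 256, 226 and 222 CPM. Its log2 fold change against the 4 with GATA1TSS was -0.26 (SE 0.08, edgeR adjusted p = 0.0283), and -0.18 without GATA1TSS-Guide2 replicate 2 (edgeR adjusted p = 0.0115). Without that library 4 members were called against the 4, COX7A2L, NDUFS7, UQCRH and UQCRHL, all lower. By range alone, 2 members lay below all of the 4 in every GATA1TSS library, COX7A2L and ATP5G2 (2.89% of all entries did, and 2.27% lay above), and 2 in every eHDAC6 library, NDUFS3 and SDHA (1.99% below and 1.87% above), with 0 members above in either case.

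**Figure D4:**
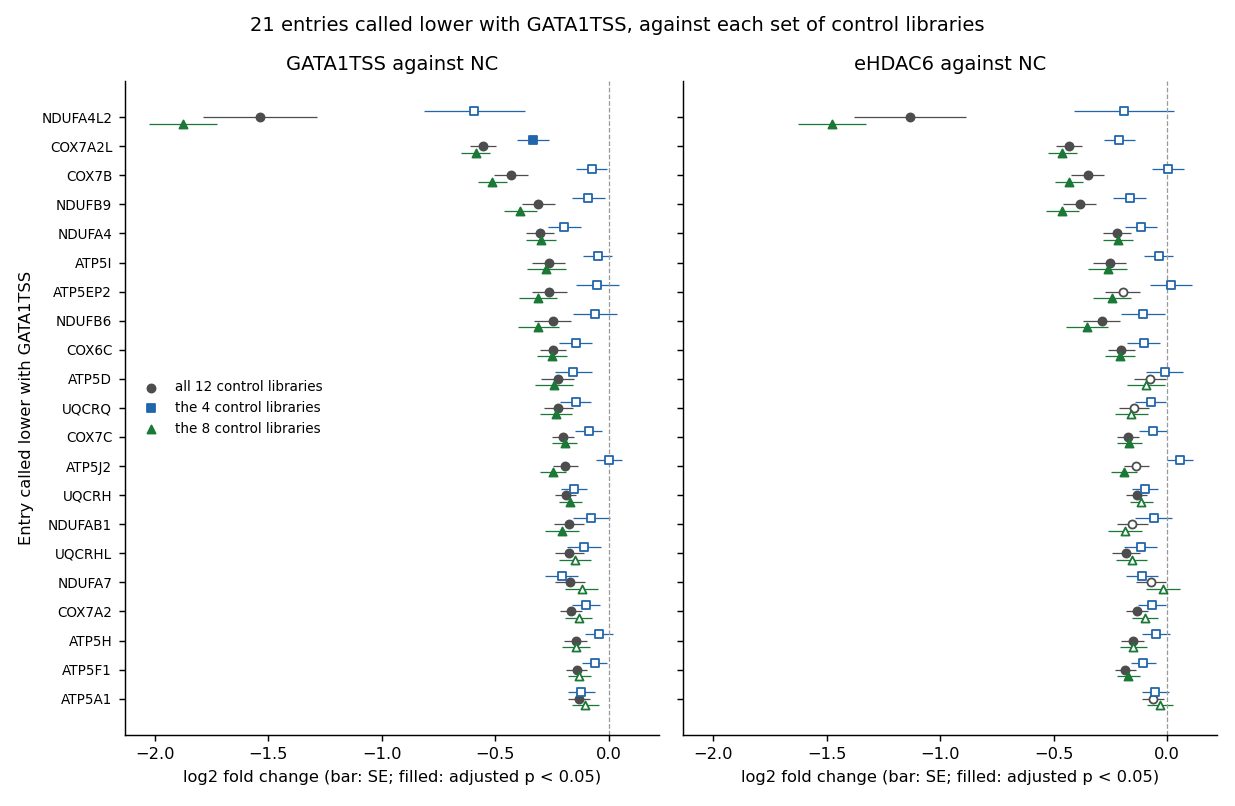
Log2 fold change with its SE of the 21 members called lower with GATA1TSS, for GATA1TSS (left) and eHDAC6 (right), against all 12, the 4 and the 8 control libraries; filled marks were called. The values against the 4 lie nearest to 0 for most members, and COX7A2L is the only one with a filled mark against the 4.

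The direct comparison of the elements, which uses no control library in its contrast, called 0 of 74 members (0.654% of all entries were higher with GATA1TSS and 0.875% lower). At an unadjusted p under 0.05 there were 4 members, and DESeq2 called 0. The members' median difference was -0.04 on the log2 scale, and 54 of 74 were negative. COX7A2L differed by -0.13 (SE 0.07, edgeR adjusted p = 0.374) and NDUFA4 by -0.08 (SE 0.07, edgeR adjusted p = 0.609), while GATA1 itself differed by -1.67 (SE 0.08, edgeR adjusted p = 1.13e-13). A miss at this threshold does not show that the elements act alike.

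The sgRNAs of GATA1TSS differed in GATA1, which was higher with GATA1TSS-Guide1 than with GATA1TSS-Guide2 by 1.10 on the log2 scale (SE 0.11, edgeR adjusted p = 2.59e-06). Among the members 0 of 74 were called between them (1.7% of all entries were higher and 1.77% lower), 18 were under an unadjusted p of 0.05 and DESeq2 called 2. The median difference over the members was 0.10, and 15 of 74 members were negative. SDHB had the second smallest p of the members, with 186, 205 and 196 CPM in GATA1TSS-Guide1 against 169, 149 and 173 CPM in GATA1TSS-Guide2, a difference of 0.25 (SE 0.08, edgeR adjusted p = 0.0579). Between eHDAC6-Guide1 and eHDAC6-Guide2 0 members were called (0.0% of all entries were higher and 0.0152% lower), with 0 under an unadjusted p of 0.05 and 0 by DESeq2, and the median difference was 0.00.

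Taken 1 sgRNA at a time against all 12 control libraries, GATA1TSS-Guide1 had 8 lower and 1 higher members (5.8% and 6.21% of all entries) and GATA1TSS-Guide2 had 20 lower and 0 higher (12.4% each of all entries). With eHDAC6-Guide1 4 were lower and 0 higher (7.35% and 9.33% of all entries), and with eHDAC6-Guide2 9 were lower and 2 higher (8.91% and 10.3%). COX7A2L, COX7B, NDUFB9 and NDUFA4L2 were lower with all 4 sgRNAs. Against the 8 the balance was another: GATA1TSS-Guide1 had 8 lower and 9 higher members, 3 of them of complex II (9.53% and 14.8% of all entries), and GATA1TSS-Guide2 had 19 and 1 (12.4% and 16.0%). There eHDAC6-Guide1 had 6 lower and 6 higher (10.9% and 16.5%) and eHDAC6-Guide2 had 10 and 6 (12% and 16.9%). Against the 4 control libraries the count was 0 in both directions for GATA1TSS-Guide1 (0.137% lower and 0.213% higher of all entries), eHDAC6-Guide1 (0.114% and 0.274%) and eHDAC6-Guide2 (0.754% and 0.945%), with 3, 4 and 1 members at an unadjusted p under 0.05 (edgeR).

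GATA1TSS-Guide2 was the exception, with 18 of 74 members lower against the 4 (24.3%, where 9.86% of all entries were lower) and 0 higher (where 9.33% were). Of these 18, 8 were also among the 20 lower against all 12: ATP5A1, ATP5B, ATP5D, COX4I1, COX7A2L, NDUFA4, NDUFA4L2 and NDUFA7. Among these 8, ATP5B and COX4I1 were not called for the element as a whole. The others included core subunits that were not called for the element: SDHA and SDHB, with log2 fold changes of -0.21 and -0.23, UQCRC2 with -0.18, and NDUFS3, NDUFS8 and NDUFV1 of the matrix arm of complex I with -0.27, -0.40 and -0.27. The call rests in part on 1 library: without GATA1TSS-Guide2 replicate 2, which has the lowest total count, 6 members were called against the 4, 13 against the 8 and 9 against all 12. The shares of all entries called without that library are not given here. The sums of 2 of the marker lists of other cell types also stood apart with GATA1TSS-Guide2. Lymphocyte markers summed to 43.2 to 53.9 CPM, with at most 40.3 CPM in any library of another sgRNA. Fibroblast markers, of which only COL1A1 was tested, summed to 23.6 to 29.1 CPM, with at most 20.3 CPM elsewhere. The other 2 lists overlapped. Myeloid markers summed to 89.3 to 114 CPM, with up to 89.8 CPM elsewhere. Epithelial markers summed to 1328 to 1504 CPM, with up to 1454 CPM with GATA1TSS-Guide1. The part of depth and of these markers in the calls was not tested.

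The summed level of the 74 members was lowest with GATA1TSS-Guide2. They held 13510 ± 567 CPM with GATA1TSS-Guide1 (SD, n = 3), 12469 ± 799 CPM with GATA1TSS-Guide2, 13431 ± 523 CPM with eHDAC6-Guide1 and 13336 ± 625 CPM with eHDAC6-Guide2. The control sgRNAs held 13687 ± 43.1 CPM (NC-Guide1), 14652 ± 664 (NC-Guide2), 14138 ± 572 (NC-Guide3) and 13597 ± 493 CPM (NC-Guide4). In percent of the mean of the 12 control libraries, the sums ran from 82.4 to 99.8% with GATA1TSS, from 91.6 to 100.3% with eHDAC6 and from 93.2 to 109.6% with NC. The groups overlap, and NC-Guide4 lay within the range of the eHDAC6 sgRNAs. These sums are led by the most abundant members, ATP5B above all. They include the 2 read-through entries, which share exons with NDUFC2 and ATP5J2, so the same reads may be in both rows. NDUFC2 and NDUFC2-KCTD14 had near-equal means of 131 and 133 CPM.

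By complex, complex IV stood at 94.0 ± 4.51% of the control mean with GATA1TSS-Guide1 (SD, n = 3), at 86.0 ± 7.83% with GATA1TSS-Guide2, the lowest mean of any complex and sgRNA, and at 93.3 ± 6.05% and 93.5 ± 5.64% with the eHDAC6 sgRNAs. The control sgRNAs ran from 94.7 ± 4.31% (NC-Guide4) to 105 ± 9.74% (NC-Guide2). Complex II went the other way for GATA1TSS-Guide1 at 108 ± 2.64%, against 95.1 ± 5.25% for GATA1TSS-Guide2, and from 93.1 ± 3.14% (NC-Guide1) to 106 ± 7.05% (NC-Guide3) among the controls. For complex II the 4 stood at 108 ± 3.78% (n = 4) and the 8 at 96.2 ± 5.23% (n = 8). Without the 10 entries of other kinds, complex IV stood at 87.2 ± 8.05% with GATA1TSS-Guide2. All of these are descriptions with no test.

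**Figure D5:**
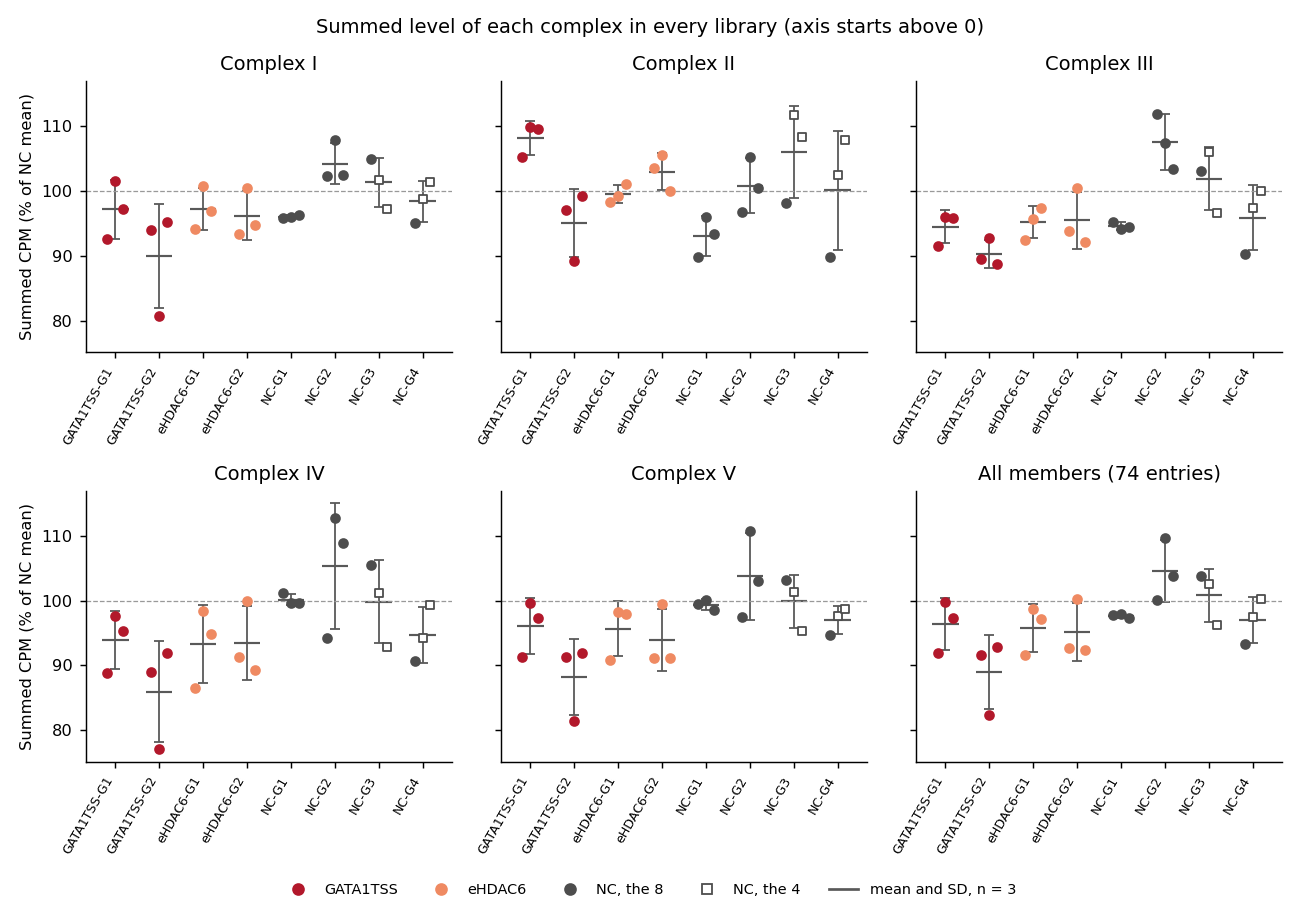
Summed CPM of the members of each complex, and of all 74, in percent of the mean of the 12 NC libraries, in each library by sgRNA (axis starts above 0); lines are the mean and SD of 3 replicates and open squares the 4 control libraries. GATA1TSS-Guide2 replicate 2 is the lowest library for complexes I, II, IV and V, and the groups overlap.

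The non-targeting sgRNAs were also compared with one another. In 1 test over the 4 NC sgRNAs 11 of 74 members were called (14.9%, where 12.3% of all entries were, edgeR adjusted p under 0.05): COX7A2L, COX7B, COX7C, ATP5F1, ATP5I, ATP5J2, NDUFA5, NDUFA12, NDUFS5, NDUFS6 and UQCRH. COX7B had the smallest adjusted p at 0.00616, with means of 218 ± 6.54 CPM (NC-Guide1), 275 ± 10.5 (NC-Guide2), 189 ± 48.8 (NC-Guide3) and 170 ± 12.1 CPM (NC-Guide4) (SD, n = 3 each). COX7A2L ran from 102 ± 5.24 CPM with NC-Guide4 to 139 ± 7.07 CPM with NC-Guide1 (edgeR adjusted p = 0.0135). Of these 11, 7 are also among the 21 members lower with GATA1TSS. The count was 0 when only the NC libraries were fitted and 23 with DESeq2. It moved widely with single libraries: it was 3 without NC-Guide2 replicate 1, 6 without NC-Guide1 replicate 3, 17 without GATA1TSS-Guide2 replicate 2 and 26 without NC-Guide3 replicate 1. It was 7 without replicate 1 or 2 of NC-Guide1, or without replicate 2 of NC-Guide3 or NC-Guide4.

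The promoters of the members are shown for some that carry these results. COX7A2L and COX7B were taken as the leading members of complex IV, and UQCRH and COX7A2 as lower members with GATA letters in the window. NDUFAB1, lower with GATA1TSS, and NDUFA5, not called lower with either element, hold GATA letters too and are not shown. SDHB and SDHD were taken from the complex in which none was called against all 12. The windows, from RefSeq on GRCh38.p14, span 250 bases before to 50 bases after the start and are written 5′ to 3′ on the strand of the gene. Capitals mark the letters of 4 motifs searched on both strands: GCGCATGCG for NRF1, CCGGAAG for GABP, AAGATGGCG for YY1 and AGATAA for GATA factors. The windows lie at chr2:42361168-42361467 (COX7A2L, minus strand), chrX:77899218-77899517 (COX7B, plus strand), chr1:46303448-46303747 (UQCRH, plus strand), chr6:75250249-75250548 (COX7A2, minus strand), chr1:17053983-17054282 (SDHB, minus strand) and chr11:112086623-112086922 (SDHD, plus strand).
COX7A2L: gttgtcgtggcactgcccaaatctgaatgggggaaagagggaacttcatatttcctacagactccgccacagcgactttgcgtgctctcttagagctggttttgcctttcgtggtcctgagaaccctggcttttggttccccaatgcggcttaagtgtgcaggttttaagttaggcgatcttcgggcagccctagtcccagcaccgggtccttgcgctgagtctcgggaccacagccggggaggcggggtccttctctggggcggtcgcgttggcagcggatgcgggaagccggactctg
COX7B: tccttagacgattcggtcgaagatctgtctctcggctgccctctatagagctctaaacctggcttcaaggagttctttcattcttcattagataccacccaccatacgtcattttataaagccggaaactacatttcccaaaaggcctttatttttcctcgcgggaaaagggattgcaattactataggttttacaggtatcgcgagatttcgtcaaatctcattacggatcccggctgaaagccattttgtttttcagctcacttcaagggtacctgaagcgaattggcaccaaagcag
UQCRH: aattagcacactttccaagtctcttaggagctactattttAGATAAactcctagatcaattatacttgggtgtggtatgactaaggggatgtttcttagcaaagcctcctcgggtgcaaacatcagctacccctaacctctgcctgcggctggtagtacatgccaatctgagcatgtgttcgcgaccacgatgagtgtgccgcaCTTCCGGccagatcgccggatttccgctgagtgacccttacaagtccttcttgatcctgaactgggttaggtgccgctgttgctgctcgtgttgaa
COX7A2: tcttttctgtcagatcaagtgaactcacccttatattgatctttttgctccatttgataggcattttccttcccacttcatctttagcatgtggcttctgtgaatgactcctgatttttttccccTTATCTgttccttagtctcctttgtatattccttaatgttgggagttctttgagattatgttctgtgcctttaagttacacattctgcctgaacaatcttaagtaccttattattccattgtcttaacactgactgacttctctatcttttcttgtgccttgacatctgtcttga
SDHB: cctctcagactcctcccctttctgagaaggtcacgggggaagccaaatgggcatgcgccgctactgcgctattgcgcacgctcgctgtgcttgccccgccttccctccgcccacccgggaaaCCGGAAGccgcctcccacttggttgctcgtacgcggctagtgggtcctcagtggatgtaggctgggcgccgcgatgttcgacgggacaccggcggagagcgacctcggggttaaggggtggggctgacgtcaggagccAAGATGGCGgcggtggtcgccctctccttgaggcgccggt
SDHD: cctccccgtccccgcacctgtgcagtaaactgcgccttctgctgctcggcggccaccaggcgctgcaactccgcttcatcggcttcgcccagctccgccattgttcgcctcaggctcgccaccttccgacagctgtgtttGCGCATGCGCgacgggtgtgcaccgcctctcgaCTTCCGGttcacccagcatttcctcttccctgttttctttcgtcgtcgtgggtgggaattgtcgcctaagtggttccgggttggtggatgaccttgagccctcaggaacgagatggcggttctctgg
The NRF1 letters lie within SDHD and overlap their own reverse complement there, GABP letters are in SDHD, SDHB and UQCRH, YY1 letters just after the start of SDHB and GATA letters in UQCRH and COX7A2. COX7A2L and COX7B hold none of the 4 in these windows.

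RefSeq windows were matched to 58 of the 74 members, 17 of them under a newer symbol. The NRF1 letters were in 8 of 58 members (13.8%), where 1.92% of all 35116 windows and 2.76% of those of protein-coding genes held them. GABP letters were in 17 of 58 (29.3%, against 10.3% and 14.2%) and YY1 letters in 6 of 58 (10.3%, against 1.75% and 2.74%). GATA letters were in 4 of 58 (6.9%, against 10.3% and 7.57%). Of the 14 matched members lower with GATA1TSS, 3 held the GATA letters and 4 the GABP letters, where 1 and 13 of the 44 other members did. The NRF1 letters were in 1 of the 14 and 7 of the 44, and the YY1 letters in 1 and 5. A match describes letters only, and the windows are of another genome build than the counts. A window may also lie at another start than that of the gene model counted, for COX7A2 as for other members.

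The genes that build and serve the chain were taken from lists chosen with earlier results known, and their shares are read against the 13.7% of all entries lower and 13.5% higher with GATA1TSS, and 15.3% and 15.8% with eHDAC6. Of 37 assembly factors tested, 7 were lower (18.9%) and 1 higher (2.7%) with GATA1TSS, and 6 (16.2%) and 0 with eHDAC6, so the shares lower were near those of all entries. Among them were TTC19 and LYRM7, which act in complex III assembly, with log2 fold changes of -0.32 and -0.34 with GATA1TSS and -0.27 and -0.33 with eHDAC6. Of 8 carriers and cytochrome c genes, 2 were lower with GATA1TSS (25.0%) and 4 with eHDAC6 (50%), among them ATPIF1, the inhibitor of ATP synthase, with -0.34 and -0.23, and CYCS, cytochrome c, with -0.19 with eHDAC6. Of 15 genes of mitochondrial import 6 were lower with GATA1TSS (40.0%) and 5 with eHDAC6 (33.3%), among them TIMM44 with -0.44 and -0.28. None of these lists had a member called higher apart from the 1 assembly factor. The medians of the lists with GATA1TSS were -0.09, -0.10 and -0.10, beside -0.00 over all entries.

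Among the regulators of the family and the citric acid cycle both directions occurred. Of 10 regulators tested, 1 was lower with GATA1TSS (10.0%): PPARGC1B, a coactivator of mitochondrial genes, with -0.35 (SE 0.06, edgeR adjusted p = 0.000147), and it had -0.40 against the 4 (edgeR adjusted p = 0.00334). With eHDAC6 PPARGC1B and TFAM, which packs mitochondrial DNA, were lower by -0.25 and -0.19, and POLRMT, the mitochondrial RNA polymerase, was higher by 0.20. Of 16 citric acid cycle and pyruvate genes 3 were lower (18.8%) and 2 higher (12.5%) with either element, shares near those of all entries, among them DLD with -0.30 and -0.31 and IDH3G with 0.23 and 0.36. Against the 4 no assembly factor and no citric acid cycle gene was called with either element, and with GATA1TSS 1 carrier gene (SLC25A5), 1 regulator (PPARGC1B) and 2 import genes (TIMM9 and TIMM44) were lower.

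Markers of cell type moved with the same comparisons. Of 10 erythroid markers tested, 9 were lower with GATA1TSS and 9 with eHDAC6 against all 12, with medians of -0.62 and -0.56, and 2 and 0 against the 4, with medians of -0.13 and -0.13. Their summed level was 6486 to 10825 CPM with GATA1TSS, 6579 to 9446 CPM with eHDAC6 and 7921 to 14481 CPM with NC, of which the 4 made up the low end at 7921 to 9031 CPM and the 8 had 12158 to 14481 CPM. Fibroblast markers summed to 10.7 to 29.1 CPM with GATA1TSS, 5.99 to 14.8 CPM with eHDAC6 and 5.13 to 20.02 CPM with NC, with 1 of the 4 genes that have a row at 0 in all GATA1TSS and all NC libraries. The 1 fibroblast gene tested, COL1A1, was higher with GATA1TSS by 0.67 against all 12 (SE 0.19, edgeR adjusted p = 0.00926) and by 1.49 against the 4 (SE 0.17, edgeR adjusted p = 5.92e-06). Lymphocyte markers summed to 28.2 to 53.9 CPM with GATA1TSS, 26.02 to 40.3 CPM with eHDAC6 and 16.9 to 35.1 CPM with NC. Of the 4 lymphocyte genes tested 3 were higher with GATA1TSS and 1 with eHDAC6 against all 12, and 2 (CD3D, by 0.72, and CD3E) and 0 against the 4. Epithelial markers, led by the keratin gene KRT8, summed to 1109 to 1504, 983 to 1144 and 874 to 1223 CPM, and myeloid markers to 68.1 to 114, 73.2 to 88.6 and 60.8 to 89.8 CPM, in the same order of groups. Of the 4 epithelial genes tested 3 were higher and 1 lower with GATA1TSS and 1 was higher with eHDAC6 against all 12. Against the 4, 2 were higher with GATA1TSS (KRT8 by 0.47 and KRT18 by 0.24), 1 was lower (EPCAM) and 0 were called with eHDAC6. Of the myeloid markers 1 was tested and 0 called. The part of these markers in the members' values was not tested.

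The members lie on 20 chromosomes, so few of them are near GATA1, which starts at position 48644982 of chromosome X in hg19. Only 4 are on chromosome X: NDUFB11, 1640 kb from the GATA1 start, UQCRBP1, COX7B and NDUFA1. None of these but COX7B was called with either element. Exons of 13 members overlap those of another gene, 4 on the same strand and 11 on the opposite strand, and their counts are uncertain in that sense. Among the 21 members lower with GATA1TSS these are ATP5F1, NDUFA4L2, UQCRQ and ATP5J2, whose exons are shared with the read-through ATP5J2-PTCD1.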

How the data were processed

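RNA was measured in 24 libraries of K562 cells, and the authors deposited raw read counts per gene in 1 table of 21925 entries, with BED gene models that gave exon positions here (deposited, of no measured unit). The submitters' processing notes name SAMtools 0.1.19, Picard, TopHat2 2.0.8, Bowtie2 2.1.0 and the build hg19. For the counting tool and its use of strand the entry is: not given in the sources used here.

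Counts were tested with edgeR 4.0.16 (R 4.3.3), with TMM scaling, a filter (minimum count 10, minimum total 15, proportion 0.7) that left 13147 entries, and quasi-likelihood fits with 1 mean per sgRNA over all 24 libraries. An element's value is the mean of its sgRNAs against the mean of the NC sgRNAs. Standard errors were derived from the F statistic, and p-values were Benjamini-Hochberg adjusted over all entries. DESeq2 1.42.0, other scaling, no filter, a replicate block, single libraries or sgRNAs left out and subsets of the controls were alternatives. The labels call the replicates biological and name no separate cultures, so p-values measure the spread between these libraries. The procedure was tested on simulated data in which the control sgRNAs did not differ from one another. That run cannot show how the calls behave with unlike controls such as those found here.

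The members, lists and control subsets were chosen with earlier results of these data known. Named members were, per complex, those with the smallest p in each contrast, the highest and lowest per kb, isoforms, SDHA to SDHD, entries that are not subunits, entries next to the level of 5 CPM, and up to 5 called among the NC sgRNAs. From other lists up to 3 called genes were named. Members named only because they were called or counted, such as NDUFS6, NDUFS3, NDUFS8 and NDUFV1, and list genes beyond the 3, were chosen after their values were seen.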

Additional observations from a re-analysis of the deposited data

Results flagged for a closer look

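The 92 groups of 6 libraries examined did not take in every member. Among them 7 held a library farther from the other 5 than Dixon's test allows, measured as its gap to the nearest library divided by the whole range. Chance flags about 1 group in 20. All 7 were GATA1TSS-Guide2 replicate 2, the library with the lowest total count. UQCRBP1, a pseudogene, had 24.1 CPM there with 11.3 CPM in the nearest library (gap share 0.893), and UQCRHL had 232 CPM with 179 CPM in the nearest (0.794). NDUFA5 was also high, at 147 CPM with 120 CPM in the nearest (0.676). NDUFS7 was low at 132 CPM with 193 CPM in the nearest (0.672), as were NDUFB2-AS1 at 15.2 with 30.4 CPM (0.655), NDUFA13 at 129 with 159 CPM (0.64) and ATP5J2-PTCD1 at 376 with 433 CPM (0.635). Members outside the 7 also lay far from the rest in that library. UQCRB had 202 CPM there with 151 CPM in the nearest GATA1TSS library, and NDUFV1 had 167 with 231 CPM. The part of the depth of that library in these values was not tested.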

How the results depend on the processing

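Of the 120 fold changes of named members, 32 were called, and over 4440 values under the alternatives 151 lost the call, 65 gained it and 3 called values changed sign. A further 187 values, of 52 fold changes, changed sign while uncalled under both settings. The called values that changed sign were the log2 fold change of ATP5J2, GATA1TSS against NC, with the 4 (0.00204, and 0.0289 without GATA1TSS-Guide2 replicate 2) and COX7B with eHDAC6 against the 4 (0.00411). For GATA1TSS against NC the 22 calls became 2 with counts summed per sgRNA, 2 against the 4, 4 against the 4 without GATA1TSS-Guide2 replicate 2 and 10 without GATA1TSS-Guide2. For eHDAC6 against NC the 16 calls became 0 summed per sgRNA, 0 against the 4, 8 without eHDAC6-Guide1 and 3 without eHDAC6-Guide2. GATA1TSS against eHDAC6 went to 1 without GATA1TSS-Guide1, and the GATA1TSS sgRNA pair to 1 with DESeq2 size factors, 1 with no filter and 2 with DESeq2. Among the NC sgRNAs the 11 calls became 0 when only those libraries were fitted and 23 with DESeq2. Single sgRNAs had 0 (the 4) and 17 (the 8) calls for GATA1TSS-Guide1, 0 and 12 for eHDAC6-Guide1 and 0 (the 4) for eHDAC6-Guide2. GATA1TSS-Guide2 without its replicate 2 had 9 calls, 6 against the 4 and 13 against the 8. The cause of these changes was not tested, and the shares of all entries are given above only for the 4 and the 8. With 1 library left out the calls ran from 10 to 27 for GATA1TSS, 12 to 22 for eHDAC6, 0 to 0 between the elements, 0 to 2 and 0 to 0 for the sgRNA pairs of GATA1TSS and eHDAC6, and 3 to 26 among NC. They ran from 2 to 11 for GATA1TSS-Guide1 (2, 4 and 2 without its replicates 1 to 3, 5 without NC-Guide1 replicate 3), from 9 to 29 for GATA1TSS-Guide2, from 1 to 9 for eHDAC6-Guide1 (1 without its replicate 1 or 3, 7 without GATA1TSS-Guide2 replicate 2, 9 without NC-Guide3 replicate 3) and from 1 to 14 for eHDAC6-Guide2 (4 and 1 without its replicates 1 and 3). The GATA1TSS pair had 2 calls without replicate 1 of NC-Guide2, NC-Guide3 or NC-Guide4. It had 1 without NC-Guide2 replicate 2 or NC-Guide3 replicate 3. With a replicate block the counts were 21 for GATA1TSS, 16 for eHDAC6, 0 for the 3 comparisons of targeting sgRNAs and 11 among NC, none moved by over 1.5 times. Libraries with the same replicate number had a median correlation of deviations of 0.0158 (-0.197 to 0.431), so the numbers were not taken as pairs. Single sgRNAs, the tests without GATA1TSS-Guide2 replicate 2 on subsets of the controls, and counts without the 10 entries of other kinds were chosen after seeing the data.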
